A study of Mus musculus with 20 samples.

Results

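The expression of 9 liver enzymes that make, spend or restore methyl groups was followed across the 20 libraries of a mouse feeding study. They are Mat1a, Gnmt, Ahcy, Bhmt, Bhmt2, Chdh, Dmgdh, Sardh and Nnmt. The genes were chosen by symbol for their place in methionine and betaine metabolism and are 9 of the 55487 Ensembl genes, 21936 of them protein coding, in the count table. Liver mRNA was sequenced from female C57BL/6J mice killed at 28 weeks of age. One group stayed on chow, and the other mice were first made obese on a high-fat diet (HFD) and then spent 10 weeks on an isocaloric HFD in which part of the casein had been replaced by fishmeal made from salmon by-products, by salmon filet or by beef. All mice were of the same strain and sex, and none carried a transgene. Each library came from the liver of 1 mouse, so p-values are set against the spread between mice of a group. Where the HFD groups are pooled against chow, that spread also holds differences between the HFD diets.

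One library carries conflicting names. Mouse 31 is labelled salmon in the sample record, but its column in the count table is named beef. The columns give 5 mice per group, the number the study describes, and that grouping is used first. The study calls these mice representative of larger diet groups and does not say how they were picked. The spread between mice given here is that of the sequenced mice. Each comparison that involves salmon filet or beef is also given with mouse 31 as labelled, which makes 6 salmon and 4 beef mice. Between 42526234 and 70266136 reads were counted on genes per library. Mouse 35 of the beef group stood apart, with 84.3% of its counts on protein coding genes against 93.2% to 95.6% in the other libraries. Mouse 12 of the fishmeal group had the lowest TMM factor, 0.868, which is the scaling that edgeR uses for library composition. The hepatocyte marker list summed to between 85076 and 118232 CPM, the count scaled to library size, in every library. In bulk liver, fewer cells of a type and less RNA per cell cannot be told apart.

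As background, hepatocytes burn much of the methionine that reaches the liver. Methionine is turned into S-adenosylmethionine, the methyl donor of the cell, which gives S-adenosylhomocysteine when its methyl group is handed on and then homocysteine. Homocysteine either regains a methyl group or leaves the cycle towards cysteine. Betaine, the oxidation product of choline, is one source of that methyl group, and its remainder is stripped of further methyl groups in mitochondria and ends as glycine. Nicotinamide takes up methyl groups in a reaction that removes both S-adenosylmethionine and the precursor of NAD.

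The 9 genes lie on 5 mouse chromosomes (positions from GENCODE M21, build GRCm38). Mat1a (ENSMUSG00000037798), which encodes the liver form of methionine adenosyltransferase and makes S-adenosylmethionine, is at chr14:41105035-41124412 on the plus strand. Gnmt (ENSMUSG00000002769) uses up surplus S-adenosylmethionine by methylating glycine to sarcosine and is at chr17:46725664-46729168, minus strand. Ahcy (ENSMUSG00000027597), the hydrolase that splits S-adenosylhomocysteine, is at chr2:155059310-155074497, minus strand. Chdh (ENSMUSG00000015970), choline dehydrogenase, starts the route from choline to betaine and is at chr14:30009023-30040527, plus strand. Bhmt (ENSMUSG00000074768) moves a methyl group from betaine to homocysteine and is at chr13:93616675-93637961, minus strand. Bhmt2 (ENSMUSG00000042118), its paralog, which uses S-methylmethionine as methyl donor, is at chr13:93655720-93674302, minus strand. Dmgdh (ENSMUSG00000042102) removes a methyl group from dimethylglycine and is at chr13:93674433-93752833, plus strand. Sardh (ENSMUSG00000009614) does the same to sarcosine and is at chr2:27188393-27248337, minus strand. Nnmt (ENSMUSG00000032271), nicotinamide N-methyltransferase, is at chr9:48591877-48605153, minus strand.

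Bhmt2 and Dmgdh start back to back. The 133 bases between their RefSeq starts, chr13:93674303-93674435 of GRCm38.p6 read on the plus strand, are shown because the relation of these neighbours across mice is reported further on. The capitals mark its 6 CG dinucleotides.
Bhmt2 and Dmgdh: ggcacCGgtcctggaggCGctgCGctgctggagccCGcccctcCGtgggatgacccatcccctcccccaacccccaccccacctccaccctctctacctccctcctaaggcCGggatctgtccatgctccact
Gnmt and Ahcy were among the members that varied together from mouse to mouse, so the 250 bases before their RefSeq starts are also given, 5′ to 3′ on the strand of the gene. The windows are chr17:46729166-46729415 and chr2:155074498-155074747 (GRCm38.p6, minus strand in both), and the capitals mark the hexamer AGGTCA or its reverse complement, the half-site that many nuclear receptors bind.
Gnmt: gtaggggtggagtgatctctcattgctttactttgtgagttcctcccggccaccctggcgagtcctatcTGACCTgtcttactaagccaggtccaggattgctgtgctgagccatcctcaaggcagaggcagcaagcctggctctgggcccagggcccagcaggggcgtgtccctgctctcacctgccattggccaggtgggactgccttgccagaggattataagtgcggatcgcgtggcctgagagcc
Ahcy: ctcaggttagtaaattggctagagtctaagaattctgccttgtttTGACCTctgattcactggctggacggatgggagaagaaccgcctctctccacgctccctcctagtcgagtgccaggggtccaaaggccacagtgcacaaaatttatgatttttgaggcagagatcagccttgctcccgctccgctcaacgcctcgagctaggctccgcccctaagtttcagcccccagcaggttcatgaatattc
AGGTCA stood on either strand of 14.02% of the 32851 windows of this length in the RefSeq table. Of the 7 members with a window in that table, Gnmt, Ahcy and Sardh held 1 copy each, Bhmt held 3, and Bhmt2, Chdh and Dmgdh held 0. CACGTG, the E-box that clock proteins bind (6.02% of windows, either strand), and TATAAA on the strand of the gene (7.59%) were in none of them. Mat1a and Nnmt had no entry. A match of letters is no evidence that a factor binds.

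Some reads of 2 members cannot be placed with certainty. Gm4737, a copy annotated as protein coding, matched Ahcy at 99.7% over 2083 bases of transcript, and it took between 18.2% and 20.3% of the counts of the pair in every library. Gm5096 matched Bhmt at 99.4% over 1869 bases and took 4.02% to 5.37%. The processed pseudogene Gm9826 took 1.65% to 2.13% of its pair with Ahcy. When the copies were added to their parent gene, no member gained or lost a call in any of the 8 comparisons. Genes on the opposite strand overlap 6 members. The annotated antisense genes over Ahcy, Bhmt, Dmgdh and Sardh reached at most 0.123% of the count of their partner and Cacna1d, over 589 bases of Chdh, at most 1.94%. The lincRNA Gm26904 covers all 3505 bases of Gnmt, and its reads were not analysed here.

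The members are among the most abundant transcripts of the liver. On the TPM scale, which divides by transcript length and so allows genes to be compared, Mat1a led with 2856 ± 429 (SD, n = 20) and ranked 39th by mean among protein coding genes. Bhmt followed at 1383 ± 346, Gnmt at 1145 ± 353 and Ahcy at 933 ± 148. Sardh had 423 ± 84.3 TPM, Dmgdh 397 ± 47.4 and Bhmt2 234 ± 18.5. At the low end were Nnmt with 94.96 ± 37.4 and Chdh with 86.9 ± 9.22 TPM, ranks 914 and 975. Mat1a exceeded Bhmt in 20 of 20 mice, Ahcy exceeded Sardh in 20, Dmgdh exceeded Bhmt2 in 20, and Bhmt2 exceeded Nnmt in 20. The other neighbours traded places within their spread: Bhmt was above Gnmt in 15 of 20 mice, Gnmt above Ahcy in 16, Sardh above Dmgdh in 10 and Nnmt above Chdh in 11. Together the 9 genes took between 0.878% and 1.259% of all counts of a library.

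How much the members varied between mice of one diet differed widely between them. The SD of log2 CPM within groups was 0.54 for Nnmt and 0.47 for Gnmt, above that of 96% and 93.4% of 11549 protein coding genes with a mean of at least 1 CPM. Chdh, with 0.11, and Bhmt2, with 0.13, were steadier than most, only 5.62% and 10% of genes having a lower SD. Bhmt (0.33), Sardh (0.31), Ahcy (0.29), Mat1a (0.23) and Dmgdh (0.18) lay between, beside a median of 0.22 over all those genes.

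**Figure D1:**
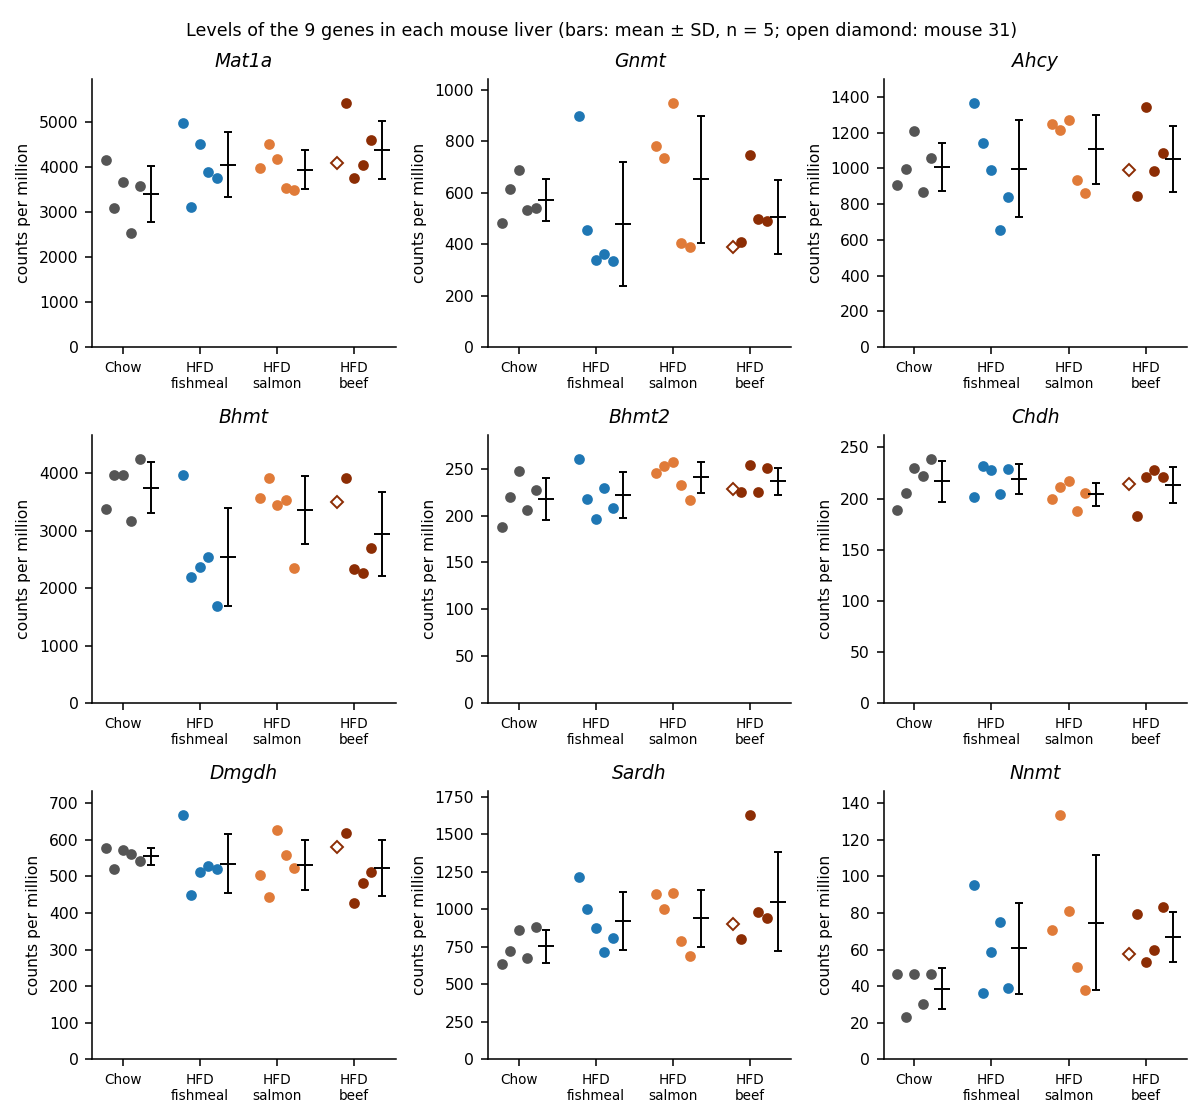
CPM (library-size scaled counts) of each of the 9 genes (y axes, from 0) in the liver of each mouse, by diet on the x axes, grouped by the names of the table columns. Points are mice, the open diamond is mouse 31, and black bars are the mean ± SD of 5 mice; Nnmt in HFD mice reached from 36.2 to 133 CPM against 22.9 to 46.7 in chow mice, and Gnmt in HFD mice from 336 to 948 CPM against 483 to 688 CPM.

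The first comparison set the pooled HFD mice against the chow mice. Chow and the HFDs differed in the shares of carbohydrate and protein and in their ingredients as well as in fat. The parts of these differences in the chow comparisons cannot be told apart here. Between the 15 HFD mice and the 5 chow mice Nnmt was the single member that passed the test, and it rose. A gene is called here when its p from edgeR's quasi-likelihood test, adjusted across the whole table by Benjamini-Hochberg, lies under 0.05, and 1669 of 17120 genes were (9.75%), so 1 of 9 members is close to the background share. At an unadjusted p under 0.05 there were 4 members, Nnmt, Mat1a, Sardh and Bhmt, beside 24.4% of all genes. The log2 fold change was positive for 5 and negative for 4 members, with a median of 0.06, and the median of all genes tested was 0.00499.

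Nnmt stood at 22.9, 30.3, 46.4, 46.7 and 46.7 CPM in the chow mice. Among HFD mice the lowest was 36.2, the median 59.9 and the highest 133 CPM. The HFD range overlapped the chow range only at its lower end, 12 of 15 HFD mice lying above every chow mouse. The level was 1.74 times that of chow (log2 fold change 0.80 ± 0.25 SE, 95% interval of the fold 1.21 to 2.51, edgeR adjusted p = 0.0458). The call was marginal. It was lost when any one of the 5 chow mice was left out, the log2 fold change then being 0.66 (without mouse 2, edgeR adjusted p = 0.141) to 0.88. It was also lost when 1 of the HFD mice 12, 14, 16, 22, 25, 32, 39 or 40 was left out. DESeq2 gave an adjusted p of 0.0128 and limma on log2(TPM + 1) one of 0.0504. One edgeR fit on all 4 groups, in which the spread is that within each diet, did not call Nnmt.

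Of the enzymes that make and clear S-adenosylmethionine, none passed the test. Mat1a was measured at 2532, 3079, 3570, 3663 and 4159 CPM in chow, and at 3099 (lowest), 4049 (median) and 5409 CPM (highest) in HFD mice. In 14 of 15 HFD mice it lay above the chow mean, yet the groups overlapped (1.21 times chow, 95% interval 1.02 to 1.44, edgeR adjusted p = 0.157). Gnmt had 483, 532, 542, 615 and 688 CPM in chow. In HFD mice its values reached both further down and further up, from 336 over a median of 454 to 948 CPM, with 8 mice below and 5 mice above the whole chow range. Its mean was 0.95 times that of chow (interval 0.69 to 1.324, adjusted p = 0.893 in edgeR), and its coefficient of variation was 39.2% in HFD mice and 14.0% in chow mice. Ahcy lay between 870 and 1211 CPM in chow and between 657 and 1364 CPM in HFD mice (1.04 times, interval 0.86 to 1.2704, edgeR adjusted p = 0.835).

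No gene of the betaine branch was called. Chdh, its first enzyme, had 188 to 238 CPM in chow and 184 to 232 CPM in HFD mice (0.98 times, interval 0.89 to 1.08, edgeR adjusted p = 0.841). Bhmt, which uses the betaine, had 3180, 3387, 3968, 3974 and 4244 CPM in chow. Its lowest HFD value was 1697, the median 2707 and the highest 3973 CPM, and 8 of 15 HFD mice lay below every chow mouse while 0 lay above. Even so the difference missed the threshold (0.79 times chow, interval 0.62 to 1.00, unadjusted p = 0.0498, adjusted p = 0.205 in edgeR). Bhmt2 measured 188 to 248 CPM in chow and 196 to 260 CPM in HFD (1.07 times, interval 0.96 to 1.195, edgeR adjusted p = 0.458). For Dmgdh the values were 521 to 578 CPM in chow and 427 to 667 CPM in HFD (0.95 times, interval 0.84 to 1.09, edgeR adjusted p = 0.7105). Sardh had 633, 674, 726, 862 and 880 CPM in chow, and 692 (lowest), 946 (median) and 1627 CPM (highest) in HFD mice. Of the 15 HFD mice 9 lay above every chow mouse (1.29 times, interval 1.03 to 1.60, edgeR adjusted p = 0.141).

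**Figure D2:**
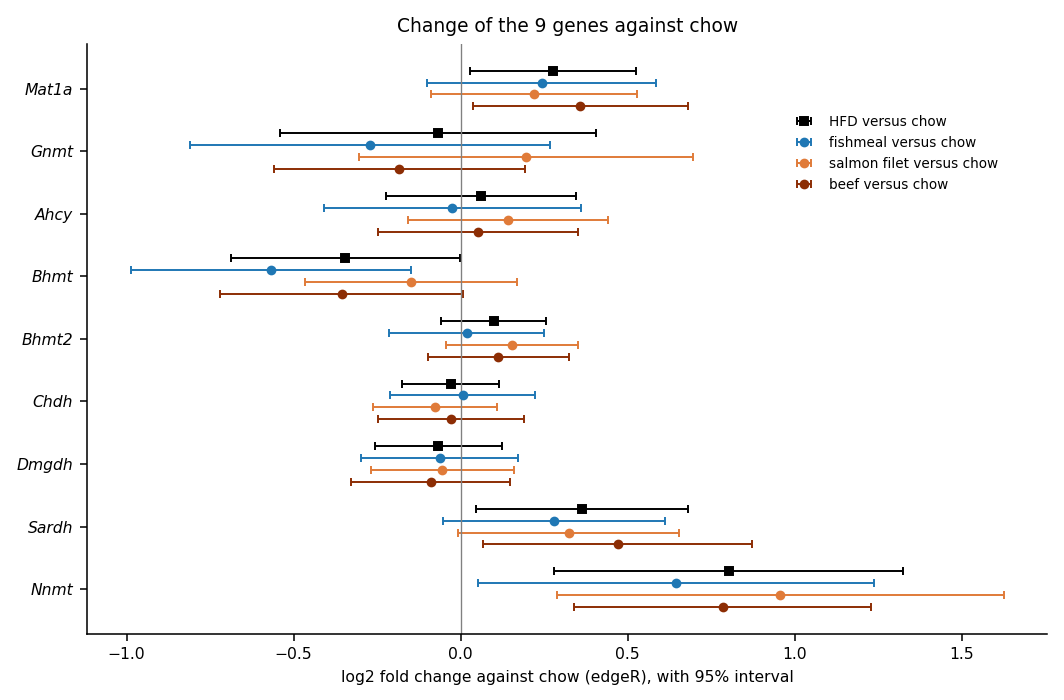
Log2 fold change of each gene (y axis) against chow with its 95% interval from the edgeR fit (x axis), for all 15 HFD mice (black squares) and for each HFD group of 5 mice (coloured points). Nnmt lies to the right of 0 in all 4 comparisons and Bhmt to the left, with Bhmt lowest in the fishmeal group at −0.57; the 4 comparisons use the same 5 chow mice.

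Each HFD group was then set against chow separately. The chow mice are the same in each of these comparisons, so the rows of values below are not independent of each other. No member passed the edgeR test in fishmeal mice, where 3.38% of all genes were called, in salmon filet mice (4.42%, and 4.46% with groups as labelled) or in beef mice (3.05%, and 2.48% as labelled). At an unadjusted p under 0.05 there were 2 members in fishmeal, 1 in salmon filet and 3 in beef (2 and 4 in the last pair as labelled), beside 16.9%, 23.8% and 18.4% of all genes (21.5% and 17.8% as labelled). DESeq2 called 0, 1 and 1 members among 1193, 1701 and 1156 genes, the member being Nnmt in both cases. On log2(TPM + 1) limma called 1, 0 and 0 members among 367, 376 and 315 genes, that one being Bhmt in fishmeal.

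Nnmt had 36.2, 38.8, 58.5, 74.9 and 95.3 CPM in fishmeal mice. In salmon filet mice it had 37.7, 50.3, 70.7, 80.9 and 133 CPM, and in beef mice 53.1, 57.5 (mouse 31), 59.9, 79.4 and 83.4 CPM. The beef and chow ranges did not overlap, as was so for 6.33% of all genes tested (8.36% as labelled), while the other 2 groups each reached into the chow range. Against chow the log2 fold change was 0.64 ± 0.27 (SE) in fishmeal (edgeR adjusted p = 0.248), 0.96 ± 0.31 in salmon filet (0.0912) and 0.78 ± 0.21 in beef (0.0622). As labelled, it was 0.90 ± 0.29 in salmon filet (0.0938) and 0.83 ± 0.22 in beef (0.0737). Mouse 23, with 133 CPM, weighed on the salmon filet value, which was 0.64 without it (edgeR adjusted p = 0.172).

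Bhmt was lowest in fishmeal mice. Of the 5, 4 had 1697, 2188, 2363 and 2539 CPM, below every chow mouse, whereas mouse 12 had 3973 CPM, within the chow range. The log2 fold change against chow was −0.57 ± 0.19 (SE; 0.67 times, interval 0.50 to 0.90), with an unadjusted p of 0.0122 and an adjusted p of 0.145 in edgeR. Without mouse 12 the value was −0.77 ± 0.14 and was called (edgeR adjusted p = 0.0134). In salmon filet mice Bhmt had 2356, 3456, 3542, 3564 and 3911 CPM (log2 fold change −0.15 ± 0.15, edgeR adjusted p = 0.561, and −0.14 ± 0.13 as labelled, 0.575). In beef mice it had 2261, 2339, 2707, 3496 (mouse 31) and 3915 CPM (−0.36 ± 0.17, edgeR adjusted p = 0.280, and −0.43 ± 0.18 as labelled, 0.235). Over all HFD mice the widest step between neighbouring values left 8 mice at or below 2707 CPM and 7 at or above 3456 CPM. The upper 7 came from all 3 HFD groups. Chow mice with 3180 and 3387 CPM lay inside this step. Every gene has a widest step, and whether it divides mice into classes was not tested.

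Gnmt was split likewise in fishmeal mice, with 336, 341, 364 and 454 CPM in 4 mice, all below the chow range, and 899 CPM in mouse 12, above it. Against chow its log2 fold change was −0.27 ± 0.25 (SE, edgeR adjusted p = 0.658) with all 5 mice and −0.61 ± 0.13 (0.0261) without mouse 12, so that 1 mouse decided whether Gnmt and Bhmt were called in this group. Salmon filet mice fell on both sides of chow, at 389, 405, 737, 782 and 948 CPM (0.20 ± 0.23, edgeR adjusted p = 0.630, and 0.09 ± 0.24 as labelled, 0.850). Beef mice had 388 (mouse 31), 408, 492, 498 and 745 CPM (−0.18 ± 0.17, adjusted p = 0.622 in edgeR, and −0.10 ± 0.18 as labelled, 0.801). None of the 15 HFD mice lay between 498 and 737 CPM, whereas chow mice with 532, 542, 615 and 688 CPM did. The 5 HFD mice above were mouse 12 of the fishmeal group, mouse 35 of the beef group and mice 22, 23 and 25 of the salmon filet group.

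Sardh and Mat1a were higher than chow on average in each HFD group without passing the test. For Sardh the log2 fold changes were 0.28 ± 0.15 (SE) in fishmeal, 0.32 ± 0.15 in salmon filet and 0.47 ± 0.19 in beef (edgeR adjusted p = 0.392, 0.218 and 0.198), or 0.31 ± 0.14 and 0.52 ± 0.20 for the last 2 as labelled (0.216 and 0.202). The beef value rested in part on mouse 35, the library with the low share of protein coding counts, whose Sardh level of 1627 CPM compares with 801 to 980 CPM in the other beef mice; without it the log2 fold change was 0.27 ± 0.12 (edgeR adjusted p = 0.298). Mat1a differed from chow by 0.24 ± 0.16, 0.22 ± 0.14 and 0.36 ± 0.15 on the log2 scale (edgeR adjusted p = 0.495, 0.362 and 0.221; as labelled 0.23 ± 0.13 and 0.38 ± 0.16, 0.334 and 0.250). Ahcy, Bhmt2, Chdh and Dmgdh stayed between −0.09 (Dmgdh in beef) and 0.15 (Bhmt2 in salmon filet) in the 3 groups. As labelled, these ends were −0.13 (Dmgdh in beef) and 0.14 (Bhmt2 in salmon filet).

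**Figure D3:**
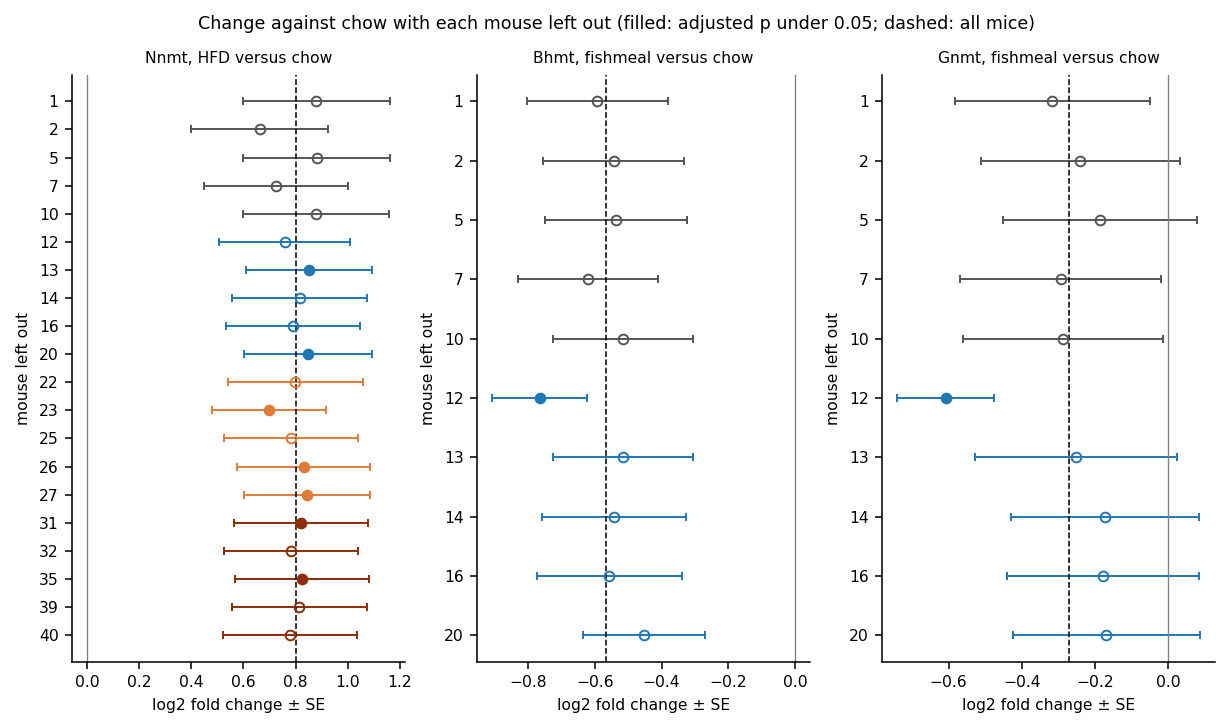
Log2 fold change against chow ± SE (x axes) for Nnmt in all HFD mice and for Bhmt and Gnmt in fishmeal mice, refitted with 1 mouse left out at a time (y axes, mouse number; grey chow, blue fishmeal, orange salmon filet, brown beef). Filled points have an edgeR adjusted p under 0.05 and the dashed line is the value with all mice; Bhmt and Gnmt are called only when mouse 12 is left out, and Nnmt loses its call with each chow mouse left out.

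Whether the HFD groups differed was asked by comparing them with one another. Their diets differed in cholesterol, added soybean oil and fatty acids as well as in protein source. The study also lists more folate and vitamin B12 in fishmeal than in reference values for salmon filet and beef. The drinking water, however, carried added B vitamins. Glycine, which Gnmt methylates, was measured and was higher in fishmeal than in salmon filet or beef. The parts of these differences cannot be told apart here. No member passed the test in any pair (edgeR), and none had an unadjusted p under 0.05. Few genes did at all: 0.17% of those tested were called between fishmeal and salmon filet (0.157% as labelled), 0.0245% between fishmeal and beef (0.00607% as labelled) and 0% between salmon filet and beef (0% as labelled). In that last pair 796 genes had an unadjusted p under 0.05, 7 were called by DESeq2 and 0 by limma on log2(TPM + 1). A joint test over the 3 groups called 0.113% of genes (0.106% as labelled) and no member, again with 0 members at an unadjusted p under 0.05. DESeq2 and limma also called 0 members in these comparisons. The counts at an unadjusted p depended on single mice. Without mouse 12, Bhmt and Gnmt had an unadjusted p under 0.05 between fishmeal and salmon filet (log2 differences −0.62 and −0.81, edgeR adjusted p = 0.297 and 0.406) and between fishmeal and beef (−0.42 and −0.43, adjusted p = 1.00 for both in edgeR), and 2 members did in the joint test. Over all genes, these 3 fits without mouse 12 gave 1587 of 16655, 443 of 16528 and 931 of 16963 at that threshold. Leaving out mouse 27 gave 1 such member between fishmeal and salmon filet, beside 848 of 16578 genes. Limma on log2(TPM + 1) also gave 2 between fishmeal and salmon filet, beside 601 of 15012 genes. The Nnmt difference between fishmeal and salmon filet went from −0.32 to −0.00391 without mouse 23.

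The intervals show how far 5 mice per group bound each difference. Bhmt was 0.75 times as high in fishmeal as in salmon filet mice (95% interval 0.55 to 1.02, unadjusted p = 0.0658, edgeR adjusted p = 0.920; 0.75 times as labelled). For Gnmt the same ratio was 0.72 (interval 0.45 to 1.159, edgeR adjusted p = 0.920; 0.79 as labelled), and for Nnmt it was 0.80 (0.49 to 1.324, adjusted p = 0.952; 0.85 as labelled). Between fishmeal and beef the ratios were 0.86 for Bhmt (0.62 to 1.21), 0.94 for Gnmt (0.62 to 1.43) and 0.91 for Nnmt (0.63 to 1.319), or 0.91, 0.89 and 0.88 as labelled. Salmon filet against beef gave 1.15 for Bhmt (0.88 to 1.52), 1.30 for Gnmt (0.88 to 1.92) and 1.126 for Nnmt (0.74 to 1.71), or 1.218, 1.143 and 1.047 as labelled. The steadier genes were bounded more tightly, Chdh at 1.06 (0.93 to 1.21) and Bhmt2 at 0.91 (0.79 to 1.05) between fishmeal and salmon filet. As labelled, the ratio was 1.06 for Chdh and 0.93 for Bhmt2.

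Mice of one diet differed from each other in a patterned way. After the mean of its group was taken from each log2 CPM value, Gnmt, Ahcy, Sardh and Bhmt2 varied together across the 20 mice, and Mat1a, Nnmt and Bhmt formed a looser group. All 36 pairs of members were examined by permutation within groups, two-sided, with Benjamini-Hochberg adjustment over the 36. Of these, 9 had an adjusted p under 0.05 for Pearson's r and 7 for Spearman's rho. The permutations ask only whether a relation differs from 0, and the share of all gene pairs that would pass was not counted. With 1 mouse left out at a time, 6 of the 9 passed in 20 of 20 fits, namely the 3 pairs among Gnmt, Ahcy and Sardh, Bhmt2 with Gnmt, Bhmt2 with Sardh, and Mat1a with Nnmt. Ahcy with Bhmt2 passed in 14 fits (not without mouse 5, 12, 20, 27, 32 or 35), Bhmt with Nnmt in 17 (not without mouse 12, 20 or 27) and Mat1a with Bhmt in 8.

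Ahcy, which clears S-adenosylhomocysteine, and Sardh, which oxidises sarcosine, were the closest pair, with r = 0.91 and rho = 0.93 (permutation p = 1e-05 for both, the smallest that 100000 permutations can give; adjusted p = 0.00036). Leaving out the 2 mice farthest from the median of Ahcy gave r = 0.92. Of 11548 other protein coding genes, 1 had a higher r with Ahcy than Sardh did, and that was its near-identical copy Gm4737. Gnmt, which makes sarcosine, correlated with Sardh at r = 0.86 and rho = 0.86 (permutation p = 5e-05 and 4e-05, adjusted 0.0006 and 0.00072), and r was 0.86 without the farthest mice. With Ahcy it reached r = 0.83 and rho = 0.85 (permutation p = 4e-05 and 7e-05, adjusted 0.0006 and 0.00084), or r = 0.77 without the farthest mice.

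Bhmt2 joined this group with less strength. Its r was 0.79 with Gnmt, 0.69 with Sardh and 0.64 with Ahcy, and its rho 0.77, 0.72 and 0.71 (permutation p of r = 8e-05, 0.00071 and 0.00694, adjusted 0.00072, 0.00426 and 0.0312; adjusted p of rho = 0.00117, 0.00528 and 0.00725). Without the farthest mice r was 0.68, 0.73 and 0.80. On log2(TPM + 1) these 3 values were 0.36, 0.41 and 0.40 and none passed (adjusted permutation p = 0.281 for each), whereas the 3 pairs among Gnmt, Ahcy and Sardh kept r of 0.73 to 0.87 and passed. A cut was also placed at the middle of the widest step between the Gnmt values of HFD mice. Every gene has such a step, and the presence of classes of mice was not tested. Over the 14 mice below the cut r of Gnmt was 0.51 with Ahcy, 0.57 with Sardh and 0.53 with Bhmt2. Over the 6 mice above the cut r was 0.90, 0.73 and 0.67, which rests on the 3 salmon filet mice, the other groups holding 1 mouse each. A cut on Gnmt narrows its range, so these values cannot be set beside those over all mice. Strong relations are not rare in these livers. An absolute r over 0.6 was held by 26.8% of protein coding genes with Sardh and 21.4% with Ahcy. It was held by 18.6% with Bhmt2 and 18.1% with Gnmt, against 3.1% with Mat1a. A higher r than that of Bhmt2 was held by 11.2% of genes with Ahcy, 9.88% with Sardh and 1.48% with Gnmt.

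**Figure D4:**
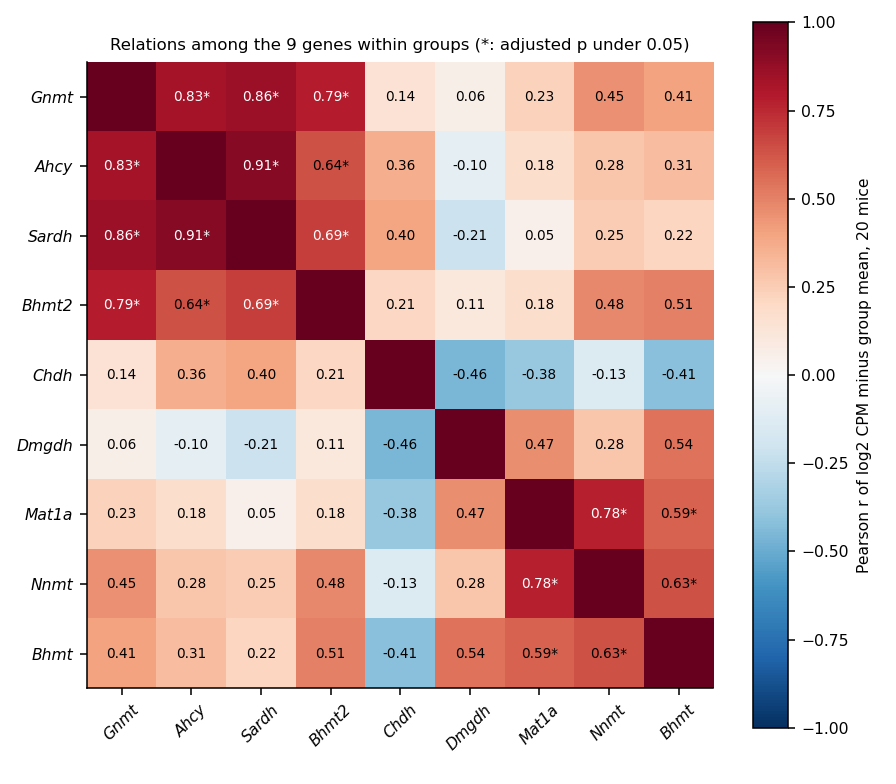
Pearson r between each pair of the 9 genes, from log2 CPM minus the group mean over 20 mice (both axes list the genes; red positive, blue negative, asterisk for an adjusted permutation p under 0.05). Gnmt, Ahcy, Sardh and Bhmt2 form one block with r from 0.64 to 0.91, and Mat1a, Nnmt and Bhmt another with r from 0.59 to 0.78.

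Mat1a and Nnmt, the maker and a consumer of S-adenosylmethionine, gave r = 0.78 and rho = 0.78 (permutation p = 0.00012 and 0.00038, adjusted 0.000864 and 0.00274), and r = 0.85 without the 2 farthest mice. For Nnmt with Bhmt r was 0.63 and rho 0.53 (permutation p = 0.00473 and 0.0239, adjusted 0.0243 and 0.0958), and for Mat1a with Bhmt 0.59 and 0.58 (0.0121 and 0.0128, adjusted 0.0485 and 0.0574). Without the 2 farthest mice r was 0.54 and 0.49. The last 2 pairs passed on Pearson's r alone and did not pass on the TPM scale (adjusted permutation p = 0.184 and 0.281). Nnmt was also related to the TMM factor, with r = −0.70 and rho = −0.71 (permutation p = 0.00205 and 0.00266, adjusted over the 9 members 0.0184 and 0.0239; r = −0.82 without the 2 farthest mice). For Gnmt, Bhmt2 and Mat1a r with this factor was −0.60, −0.59 and −0.56 (adjusted permutation p = 0.054 for each), and for Sardh and Ahcy it was −0.49 (0.0777 and 0.123). Without the 2 farthest mice these 5 values were −0.18, −0.32, −0.68, −0.06 and −0.09. When mice 12 and 35, the libraries with the lowest factors, were both left out, 5 of the 9 pairs still passed, namely Mat1a with Nnmt (r = 0.73), Gnmt with Sardh (0.83), Ahcy (0.73) and Bhmt2 (0.67), and Ahcy with Sardh (0.91). The other 4 did not, namely Bhmt2 with Sardh (r = 0.62, adjusted permutation p = 0.0665) and with Ahcy (0.47, 0.216), Bhmt with Nnmt (0.52, 0.144) and Mat1a with Bhmt (0.44, 0.228). The part of library composition in these relations was not tested.

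Bhmt2 and Dmgdh, whose starts are 133 bases apart, showed little relation, with r = 0.11. The median absolute r of protein coding genes with Bhmt2 was 0.37, and 44.9% of genes had a higher signed r with Bhmt2 than Dmgdh had. Dmgdh and Sardh, which carry out successive steps of the same branch, had r = −0.21. None of the 8 pairs that involve Chdh, nor any that involve Dmgdh, had an adjusted p under 0.05 with all mice. Without both mouse 12 and mouse 35, 7 pairs passed, and Chdh with Ahcy (r = 0.60, adjusted permutation p = 0.0311) and with Sardh (r = 0.65, 0.0184) were among them. With mouse 23 alone left out, Dmgdh passed with Bhmt (r = 0.69), Mat1a (r = 0.63) and Nnmt (r = 0.60).

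**Figure D5:**
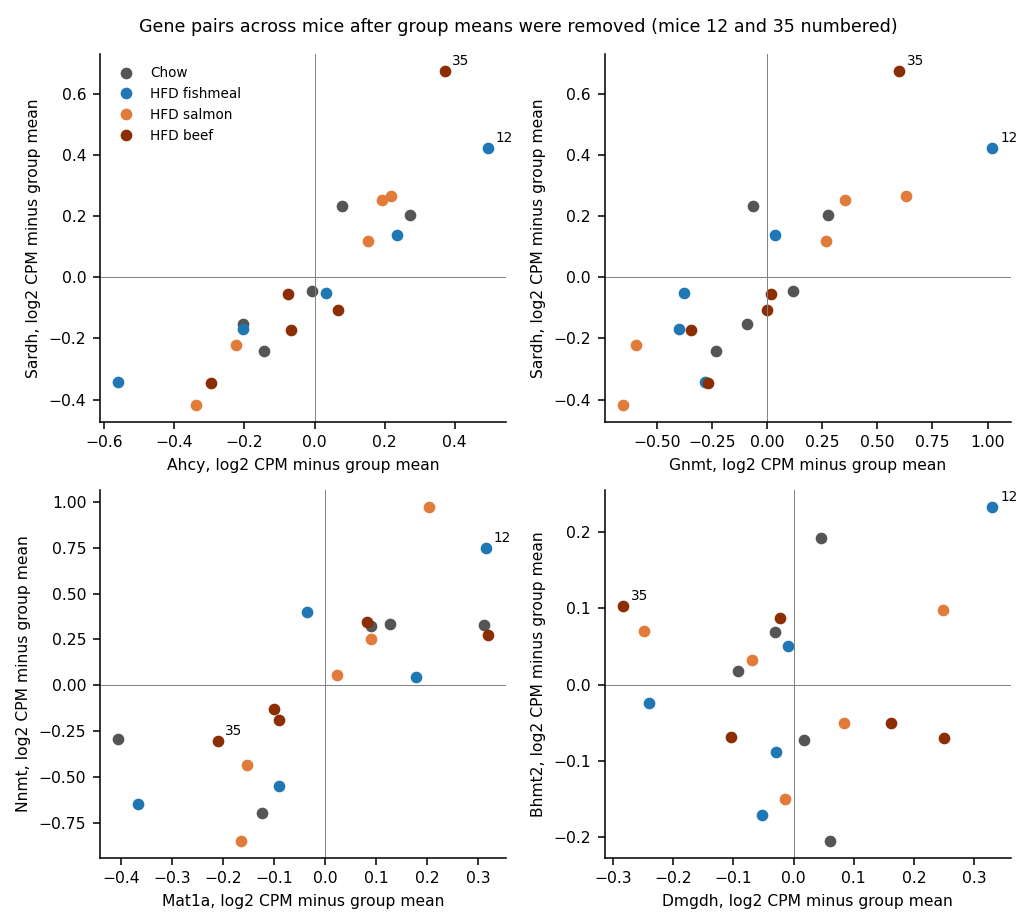
Log2 CPM minus the group mean for 4 pairs of genes (axes as labelled), 1 point per mouse, coloured by diet, with mice 12 and 35 numbered. Sardh follows Ahcy (r = 0.91) and Gnmt (r = 0.86), Nnmt follows Mat1a (r = 0.78), and the divergent neighbours Dmgdh and Bhmt2 scatter (r = 0.11).

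The genes most like each member were found in the same way among 11540 protein coding genes, without a test. Gnmt was closest to Mthfd1 (r = 0.94), a folate enzyme, and Uroc1 (0.90). The closest to Sardh were Slc22a18 (0.94) and Gm4737 (0.92), and the closest to Ahcy were Gm4737 (0.99), which may share its reads, and Tmbim6 (0.90). Bhmt was nearest to its own copy Gm5096 (0.94) and then to Slc25a15 (0.79). Bhmt2 was nearest to Spns2 (0.89) and Agxt (0.88), Mat1a to Cml2 (0.86) and Dpyd (0.84), and Nnmt to Tbccd1 (0.88) and Gjb2 (0.87). Chdh was nearest to Casp6 (0.90) and Sun2 (0.88), and Dmgdh to Parva (0.87) and Ndfip2 (0.85). All of these are over 20 mice that share their diets and their handling.

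Over the 7 lists of neighbouring steps, 8 of 77 genes were called between HFD and chow (10.4%, beside 9.75% of all genes). None of 14 other genes of the methionine cycle and of methionine salvage was called (4 at an unadjusted p under 0.05), and none of the 2 genes that remove homocysteine was. Mat2a, the methionine adenosyltransferase of most other tissues, was at 62.6 ± 7.82 CPM (SD, n = 15) in HFD and 76.7 ± 15.8 CPM (n = 5) in chow mice (log2 fold change −0.29 ± 0.10 SE, edgeR adjusted p = 0.0771). Mtr, methionine synthase, differed by 0.08 ± 0.08 (0.632). Cbs and Cth, which lead homocysteine to cysteine, differed by 0.19 ± 0.14 and −0.45 ± 0.23 (edgeR adjusted p = 0.414 and 0.220).

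Of 15 genes that supply choline and betaine, 1 was called: Slc25a48, a carrier of the inner mitochondrial membrane linked to choline uptake, rose from a mean of 6.52 to 11.8 CPM (log2 fold change 0.85 ± 0.13 SE, edgeR adjusted p = 3.07e-04) and was called in each HFD group against chow. Aldh7a1, which oxidises betaine aldehyde, differed by 0.06 ± 0.09 (0.743). A list of 8 genes held other small molecule methyltransferases and Gatm, which makes the substrate of creatine synthesis and is not itself a methyltransferase. Gatm fell by 0.36 on the log2 scale (edgeR adjusted p = 0.0357), and no other gene of the list was called. Pemt, which makes phosphatidylcholine by methylation, differed by 0.19 ± 0.11 (edgeR adjusted p = 0.325). None of the 8 genes of glycine cleavage and of the electron acceptors of Dmgdh and Sardh was called (1 at an unadjusted p under 0.05).

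Folate genes moved in both directions, 3 of 19 tested rising and 1 falling. Among those that rose, Ftcd, which feeds histidine carbon into folate, was higher by 0.34 ± 0.11 (log2, SE; edgeR adjusted p = 0.0459) and Slc19a1, the reduced folate carrier, by 0.60 ± 0.18 (0.0395). Ggh, which trims folate polyglutamates, fell by 0.34 (edgeR adjusted p = 0.0158). Around Nnmt, 2 of 11 nicotinamide and NAD genes were called. Nmnat3, a mitochondrial adenylyltransferase that forms NAD, rose by 0.55 ± 0.09, and Nmrk1, nicotinamide riboside kinase, fell by 0.49 (edgeR adjusted p = 4.59e-04 and 0.0179). Nampt, which salvages nicotinamide, differed by −0.05 ± 0.16 (0.889).

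Other features of the livers moved with diet beside these results. Of 15 circadian clock genes, 8 rose and 2 fell in HFD mice, with Dbp at 34.0 ± 35.8 CPM against 1.30 ± 0.69 CPM in chow. A clock score (mean log2 CPM of Arntl, Npas2 and Clock minus that of Dbp, Nr1d2, Per3 and Tef) ran from 0.95 to 2.75 in chow and from −4.53 to 2.06 in HFD mice, mouse 31 having the highest HFD score. With that score in the model Nnmt was 0.67 ± 0.32 (log2, SE) above chow (unadjusted p = 0.0479, edgeR adjusted p = 0.375), and 320 genes were called in place of 1669. Bhmt moved from −0.34 to −0.12 in that fit (edgeR adjusted p = 0.889), from −0.57 to −0.26 in fishmeal (0.888) and from −0.36 to −0.06 in beef mice (0.943). Nnmt in salmon filet mice moved from 0.96 to 0.41 (edgeR adjusted p = 0.881). Gnmt changed sign, to 0.12 in fishmeal and −0.24 in salmon filet mice, and was −0.56 in beef mice (edgeR adjusted p = 0.969, 0.912 and 0.429). Sardh was at 0.23 over all HFD mice, 0.13 in salmon filet and 0.20 in beef, and Mat1a at 0.10 in fishmeal and 0.06 in salmon filet mice. No member was called with the score in the model. The score itself differed between chow and HFD mice, and Dbp, Nr1d2, Per3 and Tef were each called between them. Diet and score therefore cannot be told apart in these fits. Chdh was related to the score by rank (rho = −0.63, permutation p = 0.00485, adjusted over the 9 members 0.0436) but not by r (−0.50, permutation p = 0.033, adjusted 0.297; r = −0.44 without the 2 farthest mice).

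Genes of the pericentral zone of the lobule were called 4 times among 10, Axin2, Tbx3 and Cyp1a2 lower and Slc22a3 higher in HFD mice, and their summed level was 6618 to 10123 CPM in chow and 8109 to 13968 CPM in HFD mice. None of 10 periportal genes was called (2 at an unadjusted p under 0.05). The 7 T and B cell markers summed to 5.63 to 11.5 CPM in chow and 2.15 to 5.66 CPM in HFD mice, 5 of them lower. The adipocyte markers, summed to at most 0.22 CPM in any library, with 1 of 5 at 0 throughout, and stellate cell markers summed to 354 to 442 CPM in chow and 299 to 486 CPM in HFD mice with 0 of 7 called (0 at an unadjusted p under 0.05). Red blood cell markers reached 73.0 to 213 CPM in chow and 85.3 to 480 CPM in HFD mice, Alas2 being higher. Of the sinusoidal endothelial and cholangiocyte markers, 1 each was lower (Clec4g and Sox9), and of the hepatocyte and macrophage markers 0 were called (1 and 2 at an unadjusted p under 0.05). Exocrine pancreas markers summed to at most 0.35 CPM. The part of clock phase, zonation and other cell types in the member values was not tested beyond these figures.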

How the data were processed

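Strand-specific mRNA libraries of mouse liver were trimmed, mapped and counted per gene by the authors, and the submitters' processing notes name HISAT2 1.2.1 and featureCounts 1.4.6-p1. The notes give a human build name, while the deposited table uses mouse Ensembl gene identifiers. Raw counts and TPM values were deposited by the authors, the TPM being scaled by transcript length. The strand setting of the counting is not given in the sources used here.

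Counts were tested with edgeR 4.0 in R 4.3 (TMM factors, filterByExpr with a minimum count of 10, quasi-likelihood F-test, Benjamini-Hochberg over all genes tested, threshold 0.05), on the libraries of each comparison only. Levels are CPM with TMM factors over all 20 libraries. Intervals are 95%. The 9 members passed the filter in every comparison. Alternatives were DESeq2 1.42 (summed count of at least 10), limma 3.58 on log2(TPM + 1) or log2(TPM + 0.1) for genes whose TPM averaged 0.5 or more, other scaling factors and filters, a fit on all 4 groups, the clock score as a covariate, groups as labelled and each mouse left out. Summing near-identical copies and leaving out mice 12 and 35 together were added after the data were seen. Relations used log2 CPM with a prior count of 2, minus group means, with 100000 permutations within groups. Near-identical transcripts were found with megablast (at least 90% identity over 500 bases). Of the code, only the edgeR fit of HFD versus chow was tested on simulated data with known changes.

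The members and gene lists were chosen with earlier results of these data known. Named genes are all members, list genes called between HFD and chow, list genes fixed by name, and the 2 genes most like each member; some of these are not reported here. Of the listed genes, 1 macrophage marker had no row under its symbol.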

Additional observations from a re-analysis of the deposited data

Results flagged for a closer look

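Among all members, 4 single values stood far from the others of their group, by Dixon's ratio of gap to range, among 54 combinations of gene and group; chance gives about 1 in 20. Gnmt in fishmeal mice was 899 CPM in mouse 12, against 454 CPM in the next mouse. Sardh in beef mice was 1627 CPM in mouse 35, the library with the low share of protein coding counts, against 980 CPM in the next. With groups as labelled, Bhmt in salmon filet mice was 2356 CPM in mouse 27, against 3456 CPM in the next, and Chdh in beef mice was 184 CPM in mouse 32, against 221 CPM in the next.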

How the results depend on the processing

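Leaving out 1 mouse at a time gave 0 to 1 members called for HFD versus chow and 0 to 2 for fishmeal versus chow. The 2 were Bhmt and Gnmt without mouse 12, where 685 of 16703 genes were called. Every other comparison gave 0, and 6 to 11 pairs were related. For HFD versus chow the count was 0 with all genes of at least 1 count, with limma at either pseudocount, with one fit on all 4 groups and with the clock score as a covariate, Nnmt keeping its direction (log2 fold change 0.66 to 0.88 over all settings). For fishmeal versus chow limma called 1 member at either pseudocount, for salmon filet versus chow DESeq2 called 1, and for beef versus chow DESeq2 and the fit with all genes of at least 1 count called 1 each. On log2(TPM + 1) 4 pairs of members were related in place of 9. Over all genes, counts of calls moved by over 1.5 times with DESeq2 (1193, 1701 and 1156 against 556, 728 and 499 for fishmeal, salmon filet and beef against chow; 98, 35 and 7 against 28, 4 and 0 for the HFD pairs; 66 against 19 jointly), limma (367, 376 and 315 at a pseudocount of 1, and 360, 366 and 311 at 0.1, against chow; 2 at 0.1 for fishmeal versus beef; 29 jointly at 1), one fit on all 4 groups (868 and 826 for fishmeal and beef), all genes of at least 1 count (13 and 1 for fishmeal and salmon filet versus beef, 29 jointly), groups as labelled (1 for fishmeal versus beef), and the clock score (320, 17, 25 and 15 against chow, 13 for fishmeal versus beef). With 1 mouse left out they ran from 986 (mouse 1) to 1939 (mouse 12) for HFD versus chow, 288 to 685, 208 to 641 and 198 to 445 for the 3 HFD groups, and 14 to 41, 1 to 4 and 0 to 2 for the pairs, and 9 to 26 jointly. The cause of these shifts was not tested. No paired analysis was possible because each mouse belongs to 1 diet and the replicate numbers only follow the order of the records, with no litter or batch given for them.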
